A study of Rattus norvegicus with 2 samples.

Results

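The cells described here were the Epcam-positive cells of the postnatal rat cochlear duct that held almost no RNA of the tectorial membrane genes Tecta and Epyc. They were chosen on measured values: a cell entered if it had at least 2 unique molecular identifiers (UMIs, each counting 1 captured RNA molecule) of Epcam (ENSRNOG00000015667) and a sum of at most 2 UMIs of Tecta and Epyc, within the limits of more than 500 and fewer than 5000 genes and under 25% mitochondrial UMIs. The rule found 136 of 25360 cells. They were 86 of 12779 cells at postnatal day 1 (P1), or 0.673% (95% Clopper-Pearson interval 0.539 to 0.83%), and 50 of 12581 at postnatal day 7 (P7), or 0.397% (0.295 to 0.524%). Each age was 1 droplet library of Sprague-Dawley cochlear duct pooled from 40 rats by the methods, without treatment or genetic change, so the animals cannot be told apart, no difference between ages has a replicate check, and none was tested. All intervals cover counting error only. In these dissociated tissues, fewer cells of a kind and fewer cells surviving dissociation cannot be told apart.

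The cochlear duct is a closed epithelial tube. On its floor lies the organ of Corti, with the sensory hair cells and the supporting cells around them, and beside it the greater epithelial ridge (Kölliker's organ) and the outer sulcus. Its roof is Reissner's membrane, and its lateral wall carries the stria vascularis, whose marginal cells secrete potassium into the endolymph. Epcam, Cdh1 (E-cadherin) and the tight junction protein Cldn4 mark epithelia in general, whereas Tecta and Epyc are typical of the ridge cells that build the tectorial membrane. Epithelial cells without them line several other places around the duct.

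The labels call both samples greater epithelial ridge cells, but 12148 of 12779 cells at P1 and 12008 of 12581 at P7 held no Epcam UMI. The libraries had 12779 and 12581 cells within the limits with medians of 6565 and 6878 UMIs per cell. A chosen cell had a median of 9409 UMIs at P1 and of 7363.5 at P7, and these cells summed to 854284 and 490477 UMIs. None of their barcodes occurred in both libraries. Scrublet, a doublet caller, marked 4 of the 86 cells at P1 and 2 of the 50 at P7, and these were kept. Levels are a gene's UMIs per 1000000 UMIs summed over the cells of a set (CPM), and a difference is a log2 ratio of these levels after adding 5 CPM to each.

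The threshold on Epcam lay in a thin part of the distribution. At P1, 369 cells had exactly 1 Epcam UMI, 27 had 2 and 30 had 3, and at P7 these numbers were 392, 37 and 11. Among the chosen cells 17 at P1 and 21 at P7 had exactly 2. On the other side of the rule, 17 chosen cells at P1 and 7 at P7 had exactly 2 UMIs of Tecta and Epyc, while 14 and 9 Epcam cells with 3 fell just outside. Free RNA or doublets can give Epcam UMIs to a cell that does not express it. Of the cells with at least 20 UMIs of the complement genes C1qa, C1qb and C1qc, which mark macrophages, 3 of 133 at P1 (2.26%, interval 0.468 to 6.45%) and 0 of 125 at P7 (interval up to 2.91%), with medians of 7838 and 8079 UMIs per cell, had 2 Epcam UMIs or more. Of cells with at least 5 UMIs of the endothelial genes Pecam1 and Cldn5, 2 of 257 at P1 (0.778%, interval 0.0944 to 2.78%) and 1 of 381 at P7 (0.262%, interval 0.00664 to 1.45%) did so, with medians of 8978 and 7820 UMIs per cell. In the whole library, 262 of 12779 cells at P1 and 181 of 12581 at P7 had 2 Epcam UMIs or more, before the limit on Tecta and Epyc. With 0 to 3 such cells in each reference group, the intervals are wide. Some cells rich in genes of other types did reach 2 Epcam UMIs, so that count alone did not mark a cell as epithelial.

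**Figure D1:**
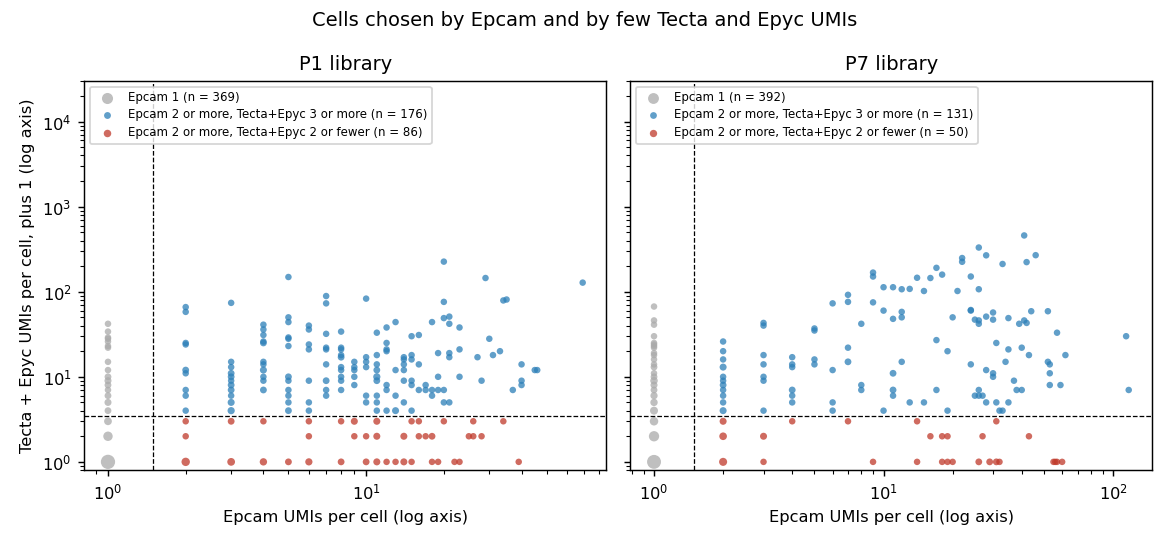
Epcam UMIs of each cell (x axis, log) against its summed Tecta and Epyc UMIs plus 1 (y axis, log) at P1 and P7, for cells with at least 1 Epcam UMI; point area grows with the number of cells and dashed lines mark the rule. The 86 and 50 chosen cells lie at the lower right, below 176 and 131 Epcam cells with 3 or more UMIs of Tecta and Epyc.

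Epithelial genes that the rule did not use separated the chosen cells by their Epcam count. The genes Cldn3, Cldn4, Cldn7, Krt8, Krt18, Cdh1, Rab25 and Spint1 were summed in each cell. Of these, Cldn4 and Cdh1 had been named as markers together with Epcam when the group was chosen, though no cell was picked by them. All 45 chosen cells at P1 and all 23 at P7 with 8 or more Epcam UMIs held at least 3 UMIs of these 8 genes, with medians of 14 and 25. With 3 to 7 Epcam UMIs, 16 of 24 cells at P1 and 3 of 6 at P7 did so. With exactly 2, only 3 of 17 and 1 of 21 did so, and the median was 0 at both ages. Among the cells without Epcam outside the chosen set, 19 of 12148 at P1 and 55 of 12008 at P7 reached 3 UMIs. The label of epithelium was thus borne out for the Epcam-rich cells, and was not for most of the 38 cells at the threshold, of which 21 fell in the cluster with mesenchymal genes.

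Against all other cells of their library, the chosen cells were at least 2-fold higher in 693 of 7711 genes tested at P1 (8.99%) and in 602 of 7787 at P7 (7.73%). They were at least 2-fold lower in 593 genes (7.69%) at P1 and in 529 (6.79%) at P7. Since the cells were picked by Epcam, these counts describe the choice. All 14 general epithelial genes tested at P1 and all 15 at P7 were higher, with medians of 2.80 and 3.41 on the log2 scale beside 0.02 and -0.06 for all genes. Krt18, a keratin of simple epithelia, stood at 318 CPM at P1 and 298 at P7, against 0.850 and 0.669 in other cells. Cldn4 was at 97.2 and 116 against 0.315 and 0.560, and Cdh1 at 58.5 and 87.7 against 3.6 and 15.1. Of the claudins tested, which seal the duct between its fluids, 6 of 8 at P1 and 8 of 12 at P7 were at least 2-fold higher and 2 and 3 were lower. Cldn9 was at 229 and 446 CPM against 1.37 and 2.29. The genes with the largest ratios at P1 included Oc90, Smoc2, Acbd7, Calb1, Cd164l2, Pcp4, LOC108351043 and Fbxo2, and at P7 Oc90, Crhbp, Rgr, Krt15, Cldn8, Lrp2, Ttr, Cldn9 and Vmo1. The genes of these lists turned out to belong to separate groups of cells.

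The 136 cells formed 4 clusters, and within 1 of them 3 sets could be told apart by counts per cell, which gives 6 sets. At P1 there were 14 hair cell-like cells, 13 Gata2-Bmp4 cells, 10 Sox2-Jag1 cells, 14 cells of the Oc90 cluster, 23 of the Smoc2-Otoa cluster and 12 of a cluster with mesenchymal genes. At P7 these numbers were 0, 0, 7, 20, 7 and 16. The genes that define the sets are a description of them and were not tested. The first 3 sets made up 1 cluster of 44 cells, which was divided after the counts per cell had been seen: 14 cells had 12 to 17 of the 22 listed hair cell genes measured and the other 30 had at most 3, and 13 of those 30 had at least 3 Gata2 UMIs.

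**Figure D2:**
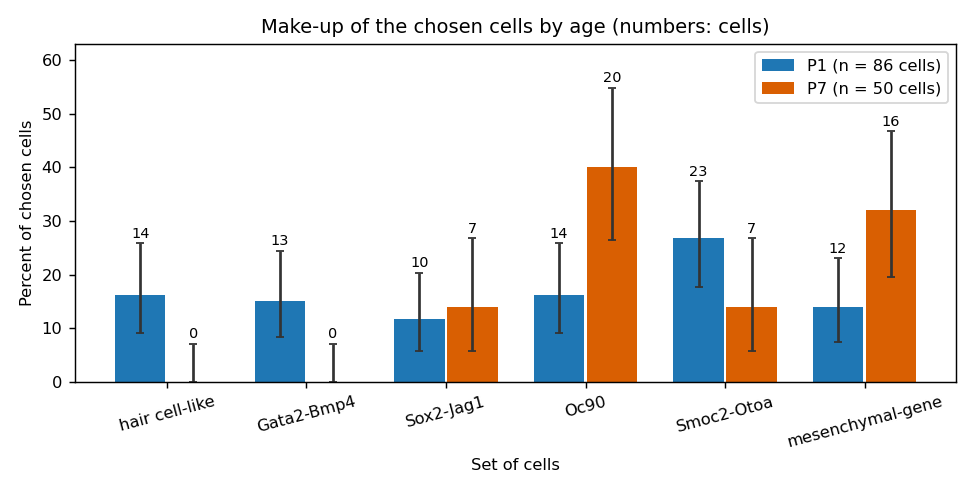
Share of the chosen cells at each age (y axis, percent) in the 6 sets (x axis), with exact 95% intervals for counting error and the number of cells above each bar. The hair cell-like and Gata2-Bmp4 sets held 14 and 13 cells at P1 and 0 at P7, and the Oc90 cluster held 16.3% at P1 and 40% at P7.

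The hair cell-like cells were all from P1 and made up 16.3% of the chosen cells there (interval 9.2 to 25.8%), against 0 of 50 at P7 (interval up to 7.11%). Hair cells turn sound into an electrical signal through a bundle of stereocilia and pass it on at ribbon synapses. Otof (ENSRNOG00000009967), otoferlin, the calcium sensor of these synapses, had 1 to 42 UMIs in each of the 14 cells, with a median of 9, and was at 879 CPM (761 to 1009). No other chosen cell of either age held an Otof UMI. Pou4f3, a transcription factor of hair cells, had 2 to 12 UMIs in all 14 cells and 0 in the other 122. Acbd7 had 7 to 50 UMIs per cell with a median of 21, Lhfpl5, a part of the transduction channel complex, 6 to 35 with a median of 20, and Espn, espin of the stereocilia, 6 to 41 with a median of 18. Every one of these 5 genes was present in all 14 cells.

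Other hair cell genes were found in fewer UMIs in the same 14 cells. Tmc1, a pore-forming subunit of the transduction channel, had 5 UMIs in 5 cells, and Myo7a, an unconventional myosin of the bundle, had 11 UMIs in 8 cells. Slc26a5 (prestin), the motor protein of outer hair cells, had 1 UMI in 1 cell, and Slc17a8, the glutamate transporter of inner hair cells, had 29 UMIs in 9 cells, at most 6 in a cell. Chrna9, a subunit of the receptor for efferent input, had 26 UMIs in 12 cells. Atoh1, which starts hair cell development, was still found in 12 cells with 32 UMIs and at most 5 in a cell, and Calb1, a calcium buffer, in 12 cells with a median of 35 UMIs. These counts place neither an inner nor an outer hair cell label on single cells at this depth.

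The hair cell-like cells were poor in the epithelial genes of the rule and in keratins. Their median Epcam count was 3.5 UMIs although their median depth of 14551 UMIs was the highest of the 6 sets at P1. Krt18 had no UMI in them, which allows up to 13.1 CPM, while Cdh1 had 17 UMIs in 8 of the 14 cells. Against the other chosen cells of P1, they were at least 2-fold higher in 1356 of 7494 genes (18.1%) and lower in 1614 (21.5%). All 5 tested genes of the ciliated cell list were higher, with a median of 3.85 against 0.01 for all genes; Tekt2, a tektin of ciliary microtubules and not a listed gene, had 181 UMIs in 13 cells. Of the immediate early genes, which respond within minutes to handling, 10 of 11 were at least 2-fold lower, with a median of -2.56. The median share of mitochondrial UMIs was 16.1% in the hair cell-like cells and 8.69% in all chosen cells of P1, and 13 of the 14 hair cell-like cells had 10% or more. Its part in these differences was not tested.

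Cells with at least 5 listed hair cell genes were also sought outside the chosen set. At P1, 14 chosen cells, 4 Epcam cells richer in Tecta and Epyc, and 5 cells with fewer than 2 Epcam UMIs reached this number. At P7 only 1 cell did, with 5 genes, among the Epcam cells richer in Tecta and Epyc. At P7 the chosen cells had at most 2 of the genes, and cells with fewer than 2 Epcam UMIs at most 3. Outside the limits, 4 barcodes reached 5 genes at P1, and 0 at P7.

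The 13 Gata2-Bmp4 cells were also all from P1, 15.1% of the chosen cells (interval 8.3 to 24.5%), against 0 of 50 at P7 (interval up to 7.11%). The Gata2 limit was applied only within the cluster of 44 cells, of which 7, with a median of 3858 UMIs, were from P7. In the other clusters, 1 Oc90 cell and 2 mesenchymal-gene cells reached 3 Gata2 UMIs at P1, and no cell did at P7. Gata2 (ENSRNOG00000012347), a zinc finger transcription factor that chose the 13 cells, had 3 to 26 UMIs in them with a median of 13. Bmp4, a secreted signal of the outer sulcus, was found in 12 of the 13 with 92 UMIs, a median of 7 and a maximum of 14. Fst, follistatin, which binds and blocks activins and BMPs, was found in 11 with 126 UMIs and at most 36 in a cell. Plet1 was present in all 13 with 2 to 8 UMIs. Signal and inhibitor were thus read in the same cells.

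Gata3 had 1 to 21 UMIs in all 13 Gata2-Bmp4 cells, and Mia 3 to 45. Sox2, the factor of the sensory and supporting cells, had 2 UMIs in 1 cell, and Jag1 1 UMI in each of 2 cells. Slc26a4 (pendrin), which secretes bicarbonate in the mature outer sulcus and spindle cells, had no UMI in these 13 cells, nor had Anxa1, which allows up to 24.4 CPM for each. Of the 9 genes of the outer sulcus and root cell list, 4 reached 10% of the cells and 4 had no UMI. Their Epcam counts of 2 to 25, with a median of 14, and Krt18 in 11 of 13 cells placed them with the Epcam-rich epithelium. In the whole of the chosen cells Bmp4 was at 112 CPM at P1 and 20.4 at P7, and Fst at 153 and 10.2. The outer sulcus and root cell list as a whole was not particular to the chosen cells. Against the Epcam cells with 3 or more UMIs of Tecta and Epyc, 1 of 5 genes tested was higher and 0 lower at P1. At P7, 2 of 7 were higher and 3 lower.

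The remaining 17 cells of the cluster, 10 at P1 and 7 at P7, carried Sox2 (ENSRNOG00000012199) in 8 and 6 cells, with medians of 3 and 2 UMIs. The Notch ligand Jag1, which marks supporting cells, was found in 4 of 10 cells at P1 and in all 7 at P7, where it had 1 to 10 UMIs. Cep41 followed the same order, with 11 UMIs in 4 of 10 cells at P1 and 77 UMIs in 7 of 7 at P7. Igfbp3, an IGF-binding protein, was found in 8 of 10 cells at P1 with a median of 10.5 UMIs and in 3 of 7 at P7, where 1 cell held 467 of 542 UMIs. S100a1 had medians of 6 and 10 UMIs. Tectb, a tectorial membrane protein, was found in 5 cells of each age.

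Markers of finer supporting cell types were sparse in the Sox2-Jag1 set. Of 11 genes of the pillar and Deiters cell list, 5 reached 10% of the cells at each age and 6 had no UMI. In a set this small, 1 cell with the gene is enough to reach 10%. Prox1, a factor of pillar and Deiters cells, had 3 UMIs in 3 cells at P1 and 8 UMIs in 4 cells at P7. Fgfr3 had 0 and 2 UMIs, and Lgr5 and Hes5 had 0 at both ages. In this set 1 P1 cell with 93 Pvalb UMIs and 1 P1 cell with 43 C1qb UMIs and 2 Epcam UMIs went against the other cells. A cell of this set had a median of 6625.5 UMIs at P1 and 3858 at P7, so a lower share of cells with a gene at P7 cannot be read as a lower level.

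**Figure D3:**
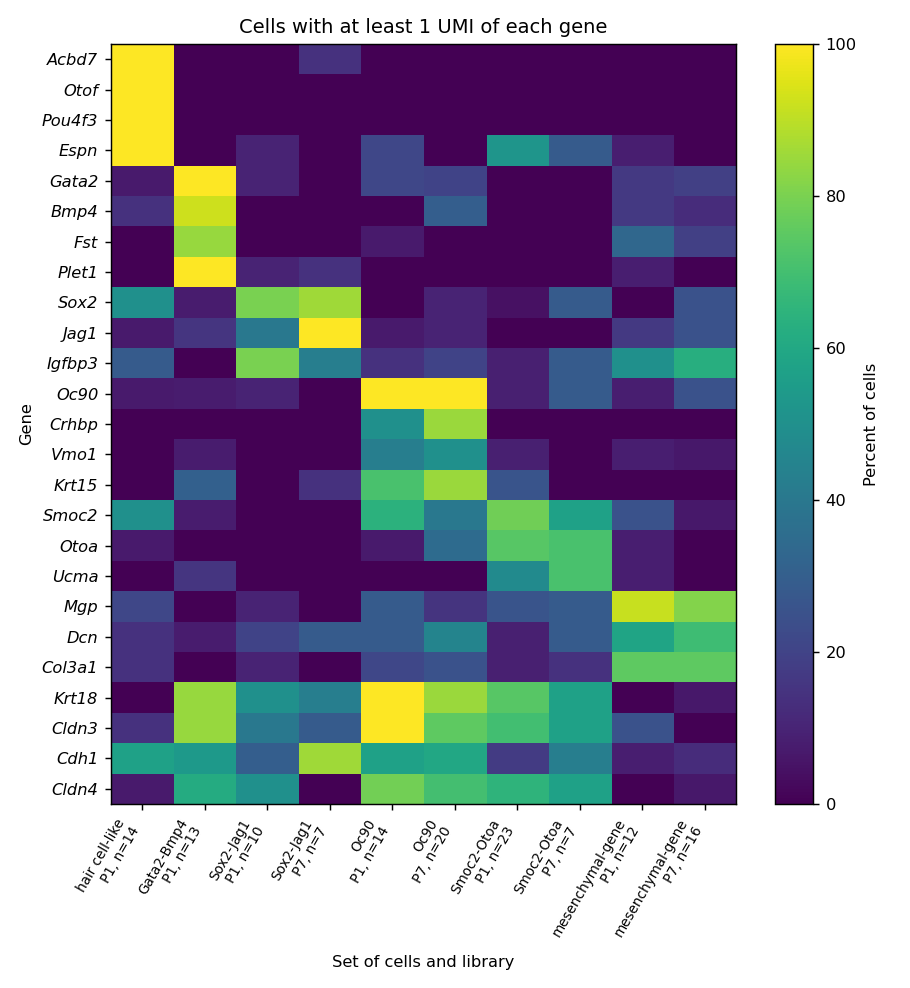
Percent of cells with at least 1 UMI (colour, 0 to 100) for 25 genes (rows) in each set and library (columns, with the number of cells). Blocks of Acbd7 to Espn, Gata2 to Plet1, Oc90 to Krt15 and Mgp to Col3a1 lie in separate sets, and Krt18, Cldn3 and Cldn4 are sparse in the hair cell-like and mesenchymal-gene sets.

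The Oc90 cluster held 34 cells, 14 at P1 and 20 at P7, and its share of the chosen cells was 16.3% (9.2 to 25.8%) and 40% (26.4 to 54.8%). Oc90 (ENSRNOG00000025516), otoconin 90, is a secreted protein best known as the main matrix protein of the vestibular otoconia and is also made by the non-sensory roof of the duct. It had 1 to 1710 UMIs per cell at P1, with a median of 588, and 15 to 3337 at P7, with a median of 918.5. Summed over the cluster this was 56865 CPM at P1 (55721 to 58027) and 83775 at P7 (82640 to 84921), so that a single gene took more than 5% of the RNA captured. In the other sets Oc90 reached 10 UMIs in 2 cells of the Smoc2-Otoa cluster at P1 and in 1 cell of the mesenchymal-gene cluster at P7.

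Of the 6 genes of the Reissner membrane and roof list, 5 reached 10% of the cells of the Oc90 cluster at each age, and the cells are called Reissner membrane and roof-like on that ground. Vmo1, found in 6 of 14 cells at P1 and 10 of 20 at P7, Slc26a7, an anion exchanger, in 9 and 17, Wnt4, a secreted signal, in 8 and 11, and Lmx1a, a roof transcription factor, in 9 and 11, belonged to them. Otx2, also on the list, had no UMI at either age, which allows up to 18.2 and 12.1 CPM. Genes of other lists reached 10% of these cells too. They were 7 of 12 marginal cell genes at P1 and 5 of 12 at P7, and 4 of 9 and 5 of 9 outer sulcus and root cell genes. The name is thus a description, and reaching 10% does not by itself set the cells apart from those types. Lrp2 (megalin), an endocytic receptor of absorbing epithelia, was in 11 of 14 and 18 of 20 cells. Ttr, the thyroxine carrier made by the choroid plexus and liver, was found in 5 and 7 cells only, with up to 207 UMIs in a cell at P1 and 177 at P7, so the cluster was not uniform.

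All 14 P1 cells of the Oc90 cluster held Krt18, with 1 to 35 UMIs, and 17 of 20 did at P7, with at most 13. Krt8 was in 14 and 16 cells. Krt15, a basal keratin, was in 10 and 17, with medians of 1.5 and 11.5 UMIs. Cldn8, a barrier-forming claudin, was in 13 and in all 20 cells. Epcam counts were 10 to 39 at P1 and 2 to 57 at P7.

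Genes of the marginal cells of the stria vascularis were found in the Oc90 cluster to differing extents. Of the 12 listed, 7 at P1 and 5 at P7 reached 10% of its cells, and Atp13a5 was in 24 of 34. Kcne1, a subunit of the apical potassium channel of marginal cells, was found in 3 of all 136 cells. It had 37 and 20 UMIs in 2 P1 cells and 29 in 1 P7 cell. The same 3 cells had 3 UMIs each of Bsnd (barttin, a chloride channel subunit), and 12, 13 and 68 UMIs of Atp1b2, a subunit of the sodium pump. Their Oc90 counts were 1, 15 and 15, whereas the next lowest cell of the cluster had 224 at P1 and 71 at P7. The P1 cell with 37 Kcne1 UMIs was marked as a doublet and also held 62 C1qb UMIs. No other chosen cell held Kcne1.

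Between the ages the chosen cells differed by at least 2-fold upward at P7 in 872 of 7776 genes (11.2%) and downward in 794 (10.2%). With pseudocounts of 1 and 20 CPM the upward count was 1134 and 363. In the other cells kept, with far more UMIs, the shares were 5.1% and 3.22%, and in the Epcam cells with 3 or more UMIs of Tecta and Epyc they were 8.81% and 4.07%. All 13 hair cell genes tested, of 22 measured, were lower at P7, with a median of -4.00, or -3.61 with the 8 genes at 0 set to their floor of 3 counts, beside 0.05 for all genes. These 8 genes passed the filter of a mean of at least 10 CPM through P1 alone, so they could only be lower. Otof was at least 38.5-fold lower, Lhfpl5 at least 52.8-fold and Grxcr2 at least 33.3-fold. These ratios restate that the hair cell-like set had no cell at P7. The log2 ratio of Otof was -5.59, or -1.69 among cells under 10% mitochondrial UMIs, which leaves out 13 of the 14 hair cell-like cells. When every cell was thinned to 2000 UMIs and the rule was applied again, 103 cells at P1 and 63 at P7 met it, and none held Otof. This was another set of cells, so that 0 does not compare the hair cell-like cells with others.

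Oc90 itself was at 11257 CPM at P1 and 42424 at P7 over all chosen cells, a log2 ratio of 1.91. It was at 2024 and 7905 in the Epcam cells with 3 or more UMIs of Tecta and Epyc, and at 12.2 and 20.2 in the other cells kept. Of 13 endolymph transport genes tested over all chosen cells, 9 were at least 2-fold higher at P7 and 0 lower, with a median of 1.88 beside 0.05 for all genes. The direction was not particular to the chosen cells. In the Epcam cells with 3 or more UMIs of Tecta and Epyc, 6 of 11 were higher and 0 lower, with a median of 1.03. In the other cells kept, 3 of 6 were higher and 0 lower, with a median of 0.69. Among the chosen cells Car2, a carbonic anhydrase, was at 8.19 and 157 CPM, Atp1b2 at 52.7 and 275, Slc26a7 at 35.1 and 186, and Slc26a4 at 14.1 and 79.5. A single P7 cell, the one with 29 Kcne1 UMIs, held 68 of the 135 Atp1b2 UMIs at P7. The log2 ratio of Slc26a7 was 2.25, or 1.16 among cells under 10% mitochondrial UMIs. Of 6 outer sulcus and root cell genes 3 were higher and 3 lower, of 9 Notch pathway genes 2 were higher and 3 lower, and of 12 transcription factors of the otic epithelium 4 were higher and 3 lower. Of all genes tested in the chosen cells, 11.2% were higher and 10.2% lower. Hes6, a Notch pathway member of the early hair cell, was at 385 CPM at P1 and 59.1 at P7. Of the 3 genes that mark the choice, Epcam, Cdh1 and Cldn4, none differed by 2-fold, with ratios of 0.65, 0.54 and 0.25.

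Genes of other cell types differed between the ages in the chosen cells as well. All 8 macrophage genes were at least 2-fold lower at P7, and 3 P1 cells held 43, 62 and 75 of the 181 C1qb UMIs at P1. All 7 neuronal genes tested were lower, all 6 glial genes higher, and of 9 mesenchyme genes 7 were higher and 1 lower. In the other cells kept, 8 of 8 neuronal genes were also lower and 4 of 7 glial genes higher. In the Epcam cells with 3 or more UMIs of Tecta and Epyc these were 4 of 4 and 4 of 6. At P1 the hair cell-like set held 237 neuronal list UMIs and the Sox2-Jag1 set 285, against 21 to 39 in each other set. Per 10000 UMIs of a cell, the list had a median of 8.41 in the Sox2-Jag1 set, but 107 in its highest cell. The sum of that set thus leans on 1 cell. In the hair cell-like set the median was 9.98 and the highest value 27.7. The mesenchymal-gene cluster held 12 of the 86 chosen cells at P1 and 16 of the 50 at P7. The part of these cells and of free RNA in the other differences was not tested. Of 5 keratins 1 was higher, of 10 claudins 3 were higher and 1 lower, and of 4 gap junction genes 0 reached 2-fold in either direction. Of 15 BMP, Wnt and FGF genes 2 were higher and 3 lower, with Bmp4 and Fst among the lower, and of 7 growth genes of early life 1 was higher and 4 lower. Of 13 apoptosis genes 3 were higher and 0 lower, beside 11.2% and 10.2% of all genes.

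Since the share of the Oc90 cluster differed between the ages, the ages were also compared within it. Oc90 was at 56865 and 83775 CPM, Krt15 at 684 and 1177, and Anxa1, an annexin, at 690 and 1447. Over its 7355 tested genes, 1033 (14%) were at least 2-fold higher at P7 and 841 (11.4%) lower. Of 14 endolymph transport genes 6 were higher and 2 lower, with a median of 0.60 beside -0.0013 for all genes. Over all chosen cells the median of this list had been 1.88. Slc26a4 was found in 3 of 14 cells at P1 and in 15 of 20 at P7, Slc26a7 in 9 and 17, and Car2 in 3 and 12. Crhbp, which binds corticotropin-releasing hormone, had 35 UMIs in 7 of 14 cells at P1 and 315 in 17 of 20 at P7, a log2 ratio of 2.56. Without the added 5 CPM the counting interval of this log2 ratio was 2.08 to 3.13.

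Further genes of the Oc90 cluster with the largest ratios upward were Fibin with 2.62, S100a1 with 2.48, Mettl7a with 2.39, and LOC686087, Cd9, F3, Sptlc3, Nampt and Rlbp1 with 1.58 to 1.85. Cd9, a tetraspanin, was in all 14 cells at P1 and all 20 at P7 and was at 424 and 1531 CPM, but in the other cells of the libraries it was also at 113 and 619. Krt18 went the other way, at 1096 CPM at P1 and 484 at P7.

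Immediate early genes were lower at P7 in the Oc90 cluster. Of 12 tested, 10 were at least 2-fold lower at P7 and 0 higher, with a median of -3.09. Fos had a median of 13.5 UMIs per cell at P1, with 0 to 55, and of 1 at P7, with 0 to 7. Jun was at 1501 and 173 CPM, Egr1 at 853 and 60.5, and Fosb at 454 and 48.4. Of the same 12 genes, 4 were lower in the other cells kept, with a median of -0.94 (all genes 0.10). Among the Epcam cells with 3 or more UMIs of Tecta and Epyc, 7 of 11 were lower, with a median of -1.42 (all genes 0.13). The 8 macrophage genes were also all lower in the cluster, with a median of -3.16 when the 4 genes at 0 at P7 were set to their floor of 3 counts, and 1 P1 cell held all of its 62 C1qb UMIs. Immediate early genes respond to tissue dissociation, and the part of dissociation in the difference was not tested.

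**Figure D4:**
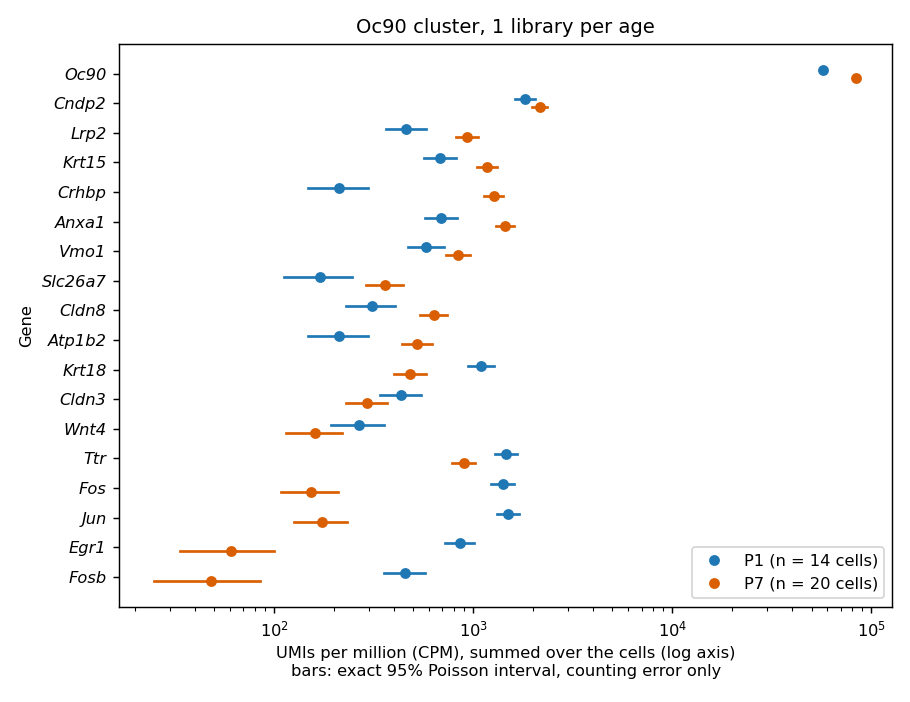
Levels of 18 genes in the Oc90 cluster (x axis, CPM, log) at P1 (14 cells) and P7 (20 cells), with exact 95% Poisson intervals for counting error over 1 library per age. Crhbp was at 212 and 1270, and Fos, Jun, Egr1 and Fosb lay further left at P7 than at P1.

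The Smoc2-Otoa cluster held 30 cells, 23 at P1 (26.7%, interval 17.8 to 37.4%) and 7 at P7 (14%, 5.82 to 26.7%). It is left without a cell type name. Smoc2, a secreted calcium-binding matrix protein, was found in 18 of 23 cells at P1 with a median of 14 UMIs and in 4 of 7 at P7 with a median of 1. Otoa (ENSRNOG00000017487), otoancorin, which attaches the tectorial membrane to the non-sensory cells beneath it, was found in 17 of 23 and 5 of 7 cells, with medians of 2 at both ages. It was found in 10 of the other 106 chosen cells. RGD1305645 was in all 30 cells at 15392 CPM at P1 and 13410 at P7. Mia was in 22 of 23 and in all 7 cells, with medians of 23 and 14 UMIs.

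Members of the tectorial membrane list other than those used by the rule were also seen in the Smoc2-Otoa cluster. Otog, otogelin, was found in 4 cells at each age, Otogl in 5 and 2, and Tectb in 1 of 23 at P1 but in 5 of 7 at P7, with up to 22 UMIs. Fgf10, a growth factor of the greater epithelial ridge, and Ceacam16 had no UMI. The median depth of the cluster was 5665 UMIs, the lowest of the 4 clusters, against 11785.5 in the Oc90 cluster, and Tecta and Epyc were counted by raw UMIs. How many of these cells had few Tecta and Epyc UMIs for their depth alone was not tested. In this cluster 1 P1 cell held 75 C1qb UMIs with 2 Epcam UMIs.

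The last cluster, 12 cells at P1 and 16 at P7, went against the label of epithelium. Its leading genes included Hba-a2, NEWGENE_1308171, Mgp, Serping1, Col1a1, Dcn and Col3a1, genes of blood and connective tissue. Mgp, matrix Gla protein, was found in 11 of 12 and 13 of 16 cells, Col3a1, a fibrillar collagen, in 9 and 12, and Otor in 12 and 15. Of 10 genes of the mesenchyme list, 7 at P1 and all 10 at P7 reached 10% of the cells, and their sum was 9819 CPM at P1 and 15235 at P7. Krt18 was found in 0 of 12 cells at P1 and in 1 of 16 at P7, and Cldn3 in 3 and 0. At least 1 UMI of the general epithelial list, with Spint2 left out, was held by 5 of 12 cells at P1 and 8 of 16 at P7. The 29 genes of the general epithelial list summed to 578 CPM at P1 and 757 at P7, against 2588 and 3287 over all chosen cells. Of the 28 cells 21 had exactly 2 Epcam UMIs, and the highest Epcam count was 6. Scrublet marked 3 of the 28.

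Haemoglobin in the mesenchymal-gene cluster came from few cells. A single P7 cell held 1022 of 1037 Hba-a2 UMIs of the cluster, and single cells held 2459 of 2490 LOC103694857 UMIs and 190 of 193 Hbb UMIs. Over all chosen cells LOC103694857 was at 36.3 CPM at P1 and 5984 at P7, where that 1 count made up 2459 of 2935 UMIs. Dividing cell genes were also highest here. Without this cluster, an alternative chosen after the data were seen, the chosen cells were 0.579% of the P1 library and 0.270% of the P7 library, and 20 of those left at P7 were in the Oc90 cluster.

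**Figure D5:**
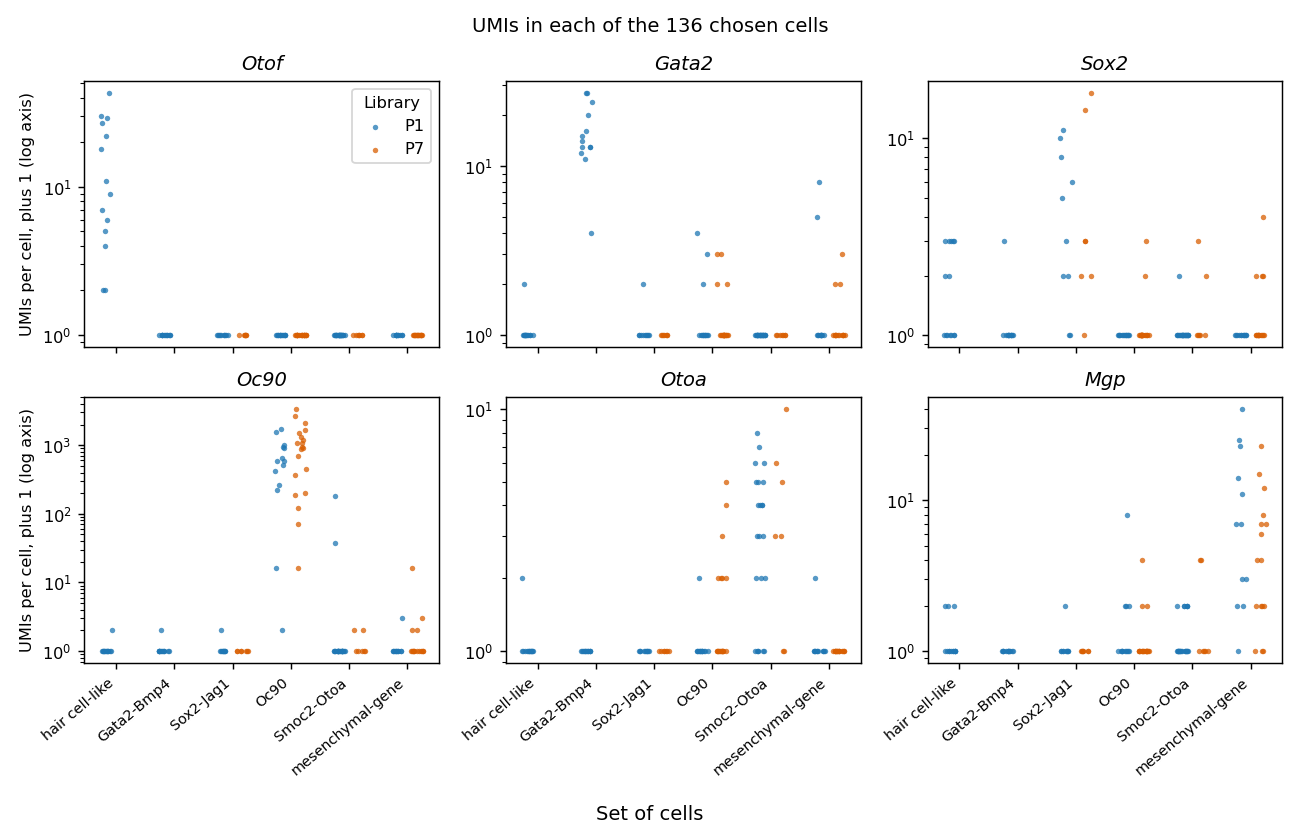
UMIs plus 1 (y axis, log) of 6 genes in each of the 136 chosen cells, by set (x axis) and library (colour); each point is 1 cell. Otof is above 0 UMIs only in the hair cell-like set, Oc90 reaches 3337 UMIs in the Oc90 cluster at P7, and Mgp is highest in the mesenchymal-gene cluster.

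The Epcam cells with 3 or more UMIs of Tecta and Epyc, 176 at P1 and 131 at P7, are the nearest group for comparison. The general epithelial genes did not separate them from the chosen cells: 0 of 18 tested at P1 were at least 2-fold higher or lower, and at P7 0 of 23 were higher and 3 lower, where 3.72% and 4.03% of all genes tested were higher and lower. At P1, 5.55% of all genes were higher and 1.93% lower in the chosen cells. The Reissner membrane and roof list was higher in the chosen cells, in 5 of 5 genes at P1 and 4 of 5 at P7, and the hair cell list in 13 of 13 at P1. At P7, 0 of 3 hair cell genes tested were higher and 2 were lower. Rgr was at 214 and 581 CPM in the chosen cells and at 5.51 and 22.3 in the others, Vmo1 at 122 and 426 against 6.61 and 29.9, and Kcne1 at 66.7 and 59.1 against 1.1 and 2.78. The genes furthest lower included Tectb, at 60.9 and 206 against 463 and 1375, Lum, Scrn1, Nebl, Upp1 and Apoa4, besides Tecta and Epyc, which the rule used. Macrophage genes were higher at P1 in 8 of 8 genes tested (Aif1 and Tyrobp among the leading ones), and 3 P1 cells held 43, 62 and 75 of the 181 C1qb UMIs of the chosen P1 cells.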

How the data were processed

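There were 2 droplet libraries (10x Genomics 3′) of cochlear duct, 1 at P1 and 1 at P7. The authors demultiplexed with bcl2fastq, used Cell Ranger 3.1.0 with rn6 for alignment and counting, and the deposited values are these raw counts per gene and barcode. Mapping and gene counts therefore follow that annotation. No correction for free RNA or doublets is stated. Depth was 1034 to 29282 UMIs per chosen cell at P1 and 936 to 22966 at P7. The limits on genes and mitochondrial UMIs were those of the methods, and the number of cells kept is not identical to that of the study.

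Clusters of the chosen cells came from Seurat 5.3.0 under R 4.3.3 (log normalization to 10000, 10 principal components, resolution 0.8, 1839 of 2000 variable genes after the listed genes were left out). Scrublet, as implemented by scanpy 1.11.5, called doublets, and values were computed with Python 3.11.15, numpy 2.4.6, scipy 1.17.1 and pandas 2.3.3. Ratios used summed UMIs as CPM, a pseudocount of 5 and genes with a mean of at least 10 CPM. With 1 library per age no difference was tested. A marker was called found at 10% of cells or more, which 1 cell meets in the smallest sets. The code that makes the fold calls was checked on simulated counts. Genes were named by size: 10 leading genes against other cells with at least 50 UMIs, 10 in each direction between ages among genes at least 2-fold higher than in other cells, 5 per cluster found in at least 25% of its cells, 10 in each direction against the Epcam cells richer in Tecta and Epyc, and the listed genes. The lists and the members were chosen with earlier results of these data known, and the sets within clusters, the comparison within the Oc90 cluster and the genes named for it were chosen after the values were seen. Of 342 listed symbols, 331 occurred in the deposited gene tables.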

Additional observations from a re-analysis of the deposited data

Results flagged for a closer look

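Outside the limits on genes and mitochondrial UMIs, in barcodes that no comparison used, 27 at P1 and 13 at P7 met the Epcam rule, of 1289 and 1920 barcodes there. Of these, 9 and 1 had 5000 genes or more and 8 and 6 had 500 or fewer. At P1, 2 of the 27 held at least 5 hair cell genes.

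Cldn14, a claudin of hair and supporting cells, went opposite ways between the ages in the chosen cells and in the Epcam cells with 3 or more UMIs of Tecta and Epyc. In the chosen cells it was at 84.3 CPM at P1 and 34.7 at P7, a log2 ratio of -1.17, and in the others at 24.2 and 61.2, a ratio of 1.18. With 1 library per age this difference was not tested.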

How the results depend on the processing

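The share of chosen cells at P1 (0.673%) became 0.407% without any UMI of Tecta or Epyc and 0.442% under 10% mitochondrial UMIs. At P7 (0.397%) it became 0.231% with at least 3 Epcam UMIs, 0.223% without any UMI of Tecta or Epyc and 0.531% when every cell was thinned to 2000 UMIs, and, in an alternative chosen after seeing the data, 0.270% without the mesenchymal-gene cluster. Genes at least 2-fold higher at P7 (872) numbered 1593 after thinning and 363 with a pseudocount of 20 CPM. Those lower (794) numbered 403 with that pseudocount and 1330 without a filter on low genes. There were 32 other alternatives for these counts and shares and for the number of clusters (4, or 5 at resolution 1.2 and with the libraries integrated). Not all of these stayed near the value given. Genes higher at P7 numbered up to 1251 among them, without a filter on low genes. Those lower numbered up to 1131, without any UMI of Tecta or Epyc. At resolution 1.2, 13 of the 14 hair cell-like cells formed a cluster of their own. The Otof ratio was 0 after thinning, when the rule chose another set of cells (103 at P1 and 63 at P7) and none held Otof. It was -1.69 under 10% mitochondrial UMIs. The log2 ratios of the 12 genes followed kept their direction, except for that 0 of Otof. Oc90 ranged from 1.38 to 2.33, Krt15 from 1.76 to 2.76, Atp1b2 from 2.02 to 2.75, Slc26a7 from 1.16 to 3.02, Gata2 from -4.31 to -2.39 and Fst from -5.35 to -2.52. Ratios under 2-fold were reached by Anxa1 (0.78) and Cldn8 (0.65) under 10% mitochondrial UMIs, by Vmo1 (0.98) with each cell weighted equally, by Acbd7 (-0.60) and Smoc2 (-0.50) after thinning, and by Smoc2 with at least 3 Epcam UMIs (-0.90), without doublet calls (-0.94) and without the mesenchymal-gene cluster (-0.84). Leaving out the 3 cells rich in C1qb, also chosen after seeing the data, gave 0.650% at P1. The number of cells per set, 7 to 23, limits every level within a set. No paired analysis was possible because each age has 1 library.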
